A study of Mus musculus with 27 samples.

Results

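Esrrb, Klf2, Klf5, Nr5a2, Prdm14, Tbx3, Nr0b1, Sall4, Zfp42 and Tcfcp2l1 are transcription factors of the naive pluripotency network, and they are 10 of the 20156 genes in the expression data. They were chosen by gene symbol, and for each of them the expression and the reads of histone H3, H3K4me3, H3K27me3 and H3K9me3 within 1000 bp of the transcription start site (TSS) and from TSS to transcript end were read out. In the inner cell mass and in mouse embryonic stem cells such factors bind one another's genes together with Oct4, Sox2 and Nanog, and LIF signalling through Stat3 feeds into the network through some of them. H3K4me3 is a mark of nucleosomes at active promoters, H3K27me3 is laid down by Polycomb complexes at repressed developmental genes, and H3K9me3 marks heterochromatin.

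The study compared mouse embryonic fibroblasts (MEFs), the intermediate pre-iPSCs and induced pluripotent stem cells (iPSCs), with 2 libraries per cell type for RNA, H3, H3K4me3 and H3K27me3 and 1 for H3K9me3. The MEFs came from e13.5 embryos that carried an Oct4-GFP transgene (the labels also name a Rosa26 allele), from CBA/CaJ × C57BL/6J males and 129Sv/Jae females, and were kept in fibroblast medium with serum for at most 3 passages before RNA-seq. Pre-iPSCs and iPSCs were made from such MEFs with retroviruses carrying Oct4, Sox2, Klf4 and c-Myc, carry the same transgene, and were grown for 6 passages in medium with serum and LIF on a layer of inactivated MEFs. The pre-iPSCs and iPSCs are 2 clones and their descendants, and which clone a library came from is not given in the sources used here. P-values therefore measure the spread between these libraries. The nuclease digestion also differed between MEFs and the other cells, and the part of digestion in a difference from MEFs cannot be told apart from that of the cell type.

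Reads in nucleosome calls numbered 67362868 to 108211816 per library for H3, 12007350 to 13146349 for H3K4me3, 13224775 to 15222040 for H3K27me3 and 12222861 to 12942154 for H3K9me3. The RNA-seq values are FPKM (fragments per kilobase of transcript, scaled to library size), which do not show the depth of a library, and read totals were not used for them here. The labelled cell types showed their markers. All 14 fibroblast markers examined were above 0 in every library, with summed levels of 6760 and 11800 FPKM in MEFs, 705 and 780 FPKM in pre-iPSCs and 308 and 444 FPKM in iPSCs. By this sum, iPSCs and pre-iPSCs held 3.31% to 8.4% of the MEF mean. Of the 14 markers, 12 were called lower in pre-iPSCs and 13 in iPSCs than in MEFs, and 1 lower in iPSCs than in pre-iPSCs. S100a4 alone was at 6940 FPKM in MEF replicate 2. Fn1 and Pdgfra were not called in pre-iPSCs against MEFs and kept larger shares. In pre-iPSCs Fn1 was at 237 and 245 FPKM, against 1320 and 397 FPKM in MEFs, and Pdgfra at 3.25 and 0.633 FPKM, against 4.28 and 5.18 FPKM. The 8 markers of pluripotent cells summed to 0.124 and 1.03 FPKM in MEFs, 927 and 3710 FPKM in pre-iPSCs and 2290 and 2230 FPKM in iPSCs. Of these 8, 6, 5 and 8 rose in the comparisons described further on. Most of the pre-iPSC sum was Oct4 (Pou5f1, 378 and 3180 FPKM), Sox2 (272 and 171 FPKM) and Tdgf1 (228 and 333 FPKM). The retroviruses delivered Oct4 and Sox2, and FPKM does not separate gene from transgene. Dppa3 was listed at 0 in both pre-iPSC libraries. Nanog (0.519 and 0 FPKM) and Dppa5a (1.7 and 5.01 FPKM, against 725 and 842 FPKM in iPSCs) were low in pre-iPSCs. In these bulk samples, fewer cells of a type and less RNA per cell cannot be told apart. For H3, replicate 1 of the pre-iPSCs and, less far, replicate 1 of the iPSCs stood apart, with medians of 143 and 102 reads in the 2000-bp TSS windows of all genes against 37 to 46 reads in the other 4 libraries.

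The start regions of 9 of the members were compared, and they differed widely in sequence. In the 300 bases from 250 before to 50 after the start (mm9), Klf2 held 32 CpG dinucleotides, Tbx3 29, Klf5 25, Tcfcp2l1 21, Nr0b1 14, Zfp42 11, Prdm14 10, Esrrb 7 and Nr5a2 2, against a median of 15 over the promoters of all 20156 genes. The CpG-rich Klf2 promoter and both annotated starts of Nr5a2 are shown because Klf2 and the RefSeq start of Nr5a2 hold the most and the fewest CpGs of the 9, and because the marks at the 2 starts of Nr5a2 are compared further on, with each CG in capitals. Klf2 starts on the plus strand (chr8:74842711-74843010). The RefSeq start of Nr5a2 (chr1:138856976-138857275) and the start that GENCODE places 6.82 kb further downstream (chr1:138850158-138850457) lie on the minus strand.
Klf2: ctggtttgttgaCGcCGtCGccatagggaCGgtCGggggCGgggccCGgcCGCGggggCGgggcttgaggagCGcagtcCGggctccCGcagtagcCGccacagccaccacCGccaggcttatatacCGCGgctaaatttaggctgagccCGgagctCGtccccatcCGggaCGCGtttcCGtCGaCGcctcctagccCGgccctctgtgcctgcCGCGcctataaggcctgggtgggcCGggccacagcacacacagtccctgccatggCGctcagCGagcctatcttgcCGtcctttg
Nr5a2, RefSeq start: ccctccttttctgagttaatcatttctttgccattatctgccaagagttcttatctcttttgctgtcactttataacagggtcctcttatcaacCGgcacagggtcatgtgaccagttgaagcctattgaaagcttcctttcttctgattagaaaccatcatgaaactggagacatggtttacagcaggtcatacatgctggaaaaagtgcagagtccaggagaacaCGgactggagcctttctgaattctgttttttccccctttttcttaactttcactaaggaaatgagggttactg
Nr5a2, downstream start: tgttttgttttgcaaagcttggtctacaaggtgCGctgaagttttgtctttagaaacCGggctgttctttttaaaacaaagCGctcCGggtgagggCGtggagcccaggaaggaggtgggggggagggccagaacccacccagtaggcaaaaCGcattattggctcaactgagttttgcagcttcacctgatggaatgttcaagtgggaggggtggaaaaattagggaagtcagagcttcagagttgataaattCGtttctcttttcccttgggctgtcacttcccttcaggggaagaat

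Of these 9 members, Zfp42 was the single one whose 300 bases at the RefSeq start held any of the 4 motifs searched on both strands. Its promoter (chr8:44392314-44392613, minus strand) is given with the matches in capitals. The octamer bound by Oct4 (ATGCAAAT) begins at position -186 and a Klf site (GGGTGTGG) at position -75, counted from the start as 0, both on the opposite strand and without overlap.
Zfp42: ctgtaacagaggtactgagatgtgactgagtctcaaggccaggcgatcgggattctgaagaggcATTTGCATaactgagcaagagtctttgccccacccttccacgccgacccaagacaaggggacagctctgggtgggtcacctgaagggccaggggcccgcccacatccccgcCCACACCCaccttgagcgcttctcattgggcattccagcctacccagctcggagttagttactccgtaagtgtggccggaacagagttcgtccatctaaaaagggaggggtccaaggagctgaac
The octamer was present in 1.7% of the promoters of all genes and the Klf site in 3.69%. The extended site of Esrrb and Nr5a2 (TCAAGGTCA) was in 0.318% of all promoters and the core of Yy1 and Zfp42 sites (AAGATGGC) in 3.46%, and in none of these 9 members. A match is a string of letters, and its absence says only that these letters are not in this window.

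To find when the factors were gained, expression was compared between the 3 cell types with limma on log2(FPKM + 1), which understates the change of low genes. Calls needed an adjusted p below 0.05 (Benjamini-Hochberg over the 12401 genes averaging 0.5 FPKM or more) and a log2 change of 1 or more. From MEFs to pre-iPSCs 2 of the 10 members rose, Nr0b1 and Sall4, where 7.39% of all tested genes rose, and none fell, where 9.0% of all fell. From pre-iPSCs to iPSCs 7 rose (Esrrb, Klf2, Prdm14, Tbx3, Sall4, Zfp42 and Tcfcp2l1) against a background of 3.91%, and none fell against 4.71%. Between MEFs and iPSCs 8 were higher in iPSCs against a background of 10.3%, and none was lower against 15.5%. The median log2 change of the members was 0.19, 2.39 and 2.34 in these comparisons, and that of all tested genes was -0.04, -0.09 and -0.14. The comparisons share their libraries, so they are given side by side. At an unadjusted p under 0.05 by limma, 5, 8 and 9 members differed, where 3892, 2684 and 4871 of all 12401 genes did, and of these members only Tbx3 in pre-iPSCs against MEFs was lower.

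**Figure D1:**
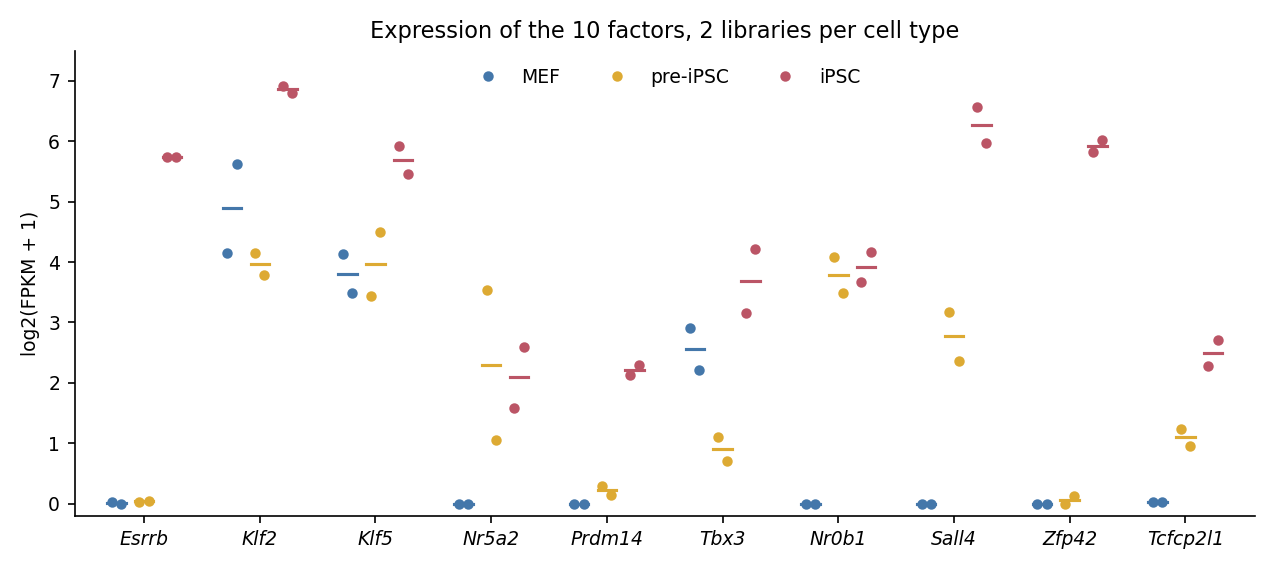
Expression of the 10 factors as log2(FPKM + 1) on the vertical axis, with 1 point per library and a bar at the mean of the 2 libraries of each cell type. Esrrb and Zfp42 reach at most 0.12 in the 4 MEF and pre-iPSC libraries and lie between 5.74 and 6.02 in iPSCs, while Nr0b1 and Nr5a2 have levels in pre-iPSCs near those in iPSCs.

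All 10 members passed the filter over the 6 libraries, 7 would have passed on the MEF and pre-iPSC libraries and 3 (Klf2, Klf5 and Tbx3) on the MEF libraries alone, so the members without a level in MEFs entered the test through the cells in which they were high. The number called moved with the libraries used. A fit without 1 library leaves its cell type with a lone library, which is then assumed to vary like the other cell types, here and in every such fit that follows. For iPSCs against pre-iPSCs it was 3 without iPSC replicate 1 and 2 without iPSC replicate 2, as the calls over all genes went from 1069 to 179 and 87, and Esrrb and Zfp42 were the members called in every such fit. For pre-iPSCs against MEFs, leaving out a MEF library moved members both ways. Nr5a2 changed by 1.93 and Klf2 by -1.77 without MEF replicate 1. Without MEF replicate 2, Nr5a2 changed by 2.67 and Tbx3 by -2.17. With no filter on low values the counts were 0, 3 and 4 for the comparisons in the order given, where 0, 170 and 549 of all 20156 genes were called.

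Of the 3 nuclear receptors, Esrrb is an orphan estrogen-related receptor that occupies many targets of Oct4 and Nanog (chr12:87702067-87862578, plus strand). It was listed at 0.0233 and 0 FPKM in MEFs, 0.0188 and 0.0335 FPKM in pre-iPSCs, and 52.5 and 52.5 FPKM in iPSCs. Expression was thus at the floor in MEFs and pre-iPSCs and nearly identical in the iPSC libraries. The log2 change from pre-iPSCs to iPSCs was 5.70 ± 0.35 (SE, limma adjusted p = 0.000488).

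Nr0b1 (Dax1), an atypical receptor that lacks the usual DNA-binding domain and acts as a corepressor, lies on the X chromosome (chrX:83437114-83441283, plus strand). Its FPKM was 0 and 0 in MEFs, then 15.9 and 10.1 in pre-iPSCs, then 11.7 and 17.0 in iPSCs. The pre-iPSC and iPSC libraries overlapped, and all 4 were above the MEFs. Nr0b1 rose by 3.78 ± 0.41 on the log2 scale from MEFs to pre-iPSCs (limma adjusted p = 0.00212), and the difference between iPSCs and pre-iPSCs was 0.14 ± 0.41 (limma adjusted p = 0.903), which is smaller than its error.

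Nr5a2 (Lrh-1), a receptor known to be able to replace Oct4 among the reprogramming factors, occupies chr1:138740161-138857025 on the minus strand. It was listed at 0 and 0 FPKM in MEFs, 10.6 and 1.07 FPKM in pre-iPSCs, and 2.00 and 5.04 FPKM in iPSCs. The pre-iPSC replicates were farther apart than the pre-iPSC and iPSC means of 5.85 and 3.52 FPKM. Neither difference from MEFs was called, with log2 changes of 2.30 ± 0.74 in pre-iPSCs and 2.09 ± 0.74 in iPSCs (limma adjusted p = 0.0786 and 0.078). The first of these was called without MEF replicate 1, MEF replicate 2 or pre-iPSC replicate 2 (limma adjusted p = 0.0358, 0.000615 and 8.39e-05, with a log2 change of 3.79 in the last) but not without pre-iPSC replicate 1, and the second without MEF replicate 2 or either pre-iPSC library (limma adjusted p = 0.00126, 0.000374 and 0.00115).

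Klf2 and Klf5 are Krüppel-like zinc finger factors whose roles in stem cells overlap with that of Klf4, and both have uses outside pluripotency, Klf2 in endothelium and Klf5 in epithelia. Klf2 (chr8:74842961-74845553, plus strand) was at 16.8 and 48.4 FPKM in MEFs, 16.8 and 12.8 FPKM in pre-iPSCs, and 120 and 111 FPKM in iPSCs. The iPSC libraries were above all others, and the ranges of MEFs and pre-iPSCs met at 16.8 FPKM. It rose by 2.89 ± 0.49 on the log2 scale from pre-iPSCs to iPSCs (limma adjusted p = 0.0144). Without iPSC replicate 1, iPSC replicate 2 or pre-iPSC replicate 2 the limma adjusted p was 0.149, 0.12 and 0.0704. Against MEFs the iPSC level was higher by 1.97 ± 0.49 (limma adjusted p = 0.0258), and without MEF replicate 1 or either iPSC library that p was 0.0579 (with a log2 difference of 1.11), 0.171 and 0.102. Without MEF replicate 1 the change from MEFs to pre-iPSCs, -0.92 ± 0.49 over all libraries (limma adjusted p = 0.258), was -1.77 (limma adjusted p = 0.00339).

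Klf5 (chr14:99697910-99712628, plus strand) was at 16.5 and 10.2 FPKM in MEFs, 9.76 and 21.5 FPKM in pre-iPSCs and 60.2 and 43.1 FPKM in iPSCs. Pre-iPSCs spanned the whole MEF range, and both iPSC libraries lay above it. The difference between iPSCs and MEFs was called at a log2 change of 1.89 ± 0.48 (limma adjusted p = 0.0266), but not without iPSC replicate 1 or 2 (limma adjusted p = 0.175 and 0.101). The difference between iPSCs and pre-iPSCs, 1.74 ± 0.48, was not called (limma adjusted p = 0.0721). It was called without either MEF library or without pre-iPSC replicate 2 (limma adjusted p = 0.000675, 0.000145 and 0.0273).

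Among the other zinc finger proteins, Sall4 is a spalt family factor that works with Oct4 and recruits the NuRD complex (chr2:168573832-168592701, minus strand). Its FPKM was 0 and 0 in MEFs, then 8.08 and 4.12 in pre-iPSCs, then 94.3 and 62.2 in iPSCs. The 3 cell types did not overlap, and Sall4 was the single member that rose in every comparison. It gained 2.77 ± 0.39 on the log2 scale from MEFs to pre-iPSCs (limma adjusted p = 0.00443) and 3.51 ± 0.39 from pre-iPSCs to iPSCs (limma adjusted p = 0.00298). The latter p was 0.0526 without iPSC replicate 1 and 0.0631 without iPSC replicate 2.

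Zfp42 (Rex1), a relative of Yy1 and a widely used marker of naive cells (chr8:44380421-44392363, minus strand), was listed at 0 and 0 FPKM in MEFs, 0 and 0.0837 FPKM in pre-iPSCs and 56.0 and 63.9 FPKM in iPSCs. As with Esrrb, MEFs and pre-iPSCs were at the floor. The log2 change from pre-iPSCs to iPSCs was 5.87 ± 0.35 (limma adjusted p = 0.000487). Prdm14, a PR domain protein that restrains FGF signalling and DNA methylation and also acts in primordial germ cells (chr1:13103509-13117244, minus strand), was listed at 0 and 0 FPKM in MEFs, 0.22 and 0.112 FPKM in pre-iPSCs and 3.38 and 3.90 FPKM in iPSCs. It rose by 1.99 ± 0.29 from pre-iPSCs to iPSCs (limma adjusted p = 0.00765), with an adjusted p of 0.0643 and 0.0826 without iPSC replicate 1 or 2. Its iPSC level was about that of Nr5a2 and far below that of Zfp42.

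Tbx3, a T-box factor also used in limb and mesenchyme, had its lowest level in pre-iPSCs (chr5:120120678-120134610, plus strand). It was at 6.45 and 3.64 FPKM in MEFs, 1.14 and 0.626 FPKM in pre-iPSCs, and 7.86 and 17.5 FPKM in iPSCs. Pre-iPSCs were lower than all other libraries. The change from MEFs to pre-iPSCs was -1.66 ± 0.50 and was not called (limma adjusted p = 0.0632), although it was called without MEF replicate 2, iPSC replicate 1 or iPSC replicate 2 (limma adjusted p = 0.00371, 0.0372 and 0.0437). From pre-iPSCs to iPSCs Tbx3 rose by 2.78 ± 0.50 (limma adjusted p = 0.0168), and the limma adjusted p was 0.128 without iPSC replicate 2 and 0.0577 without pre-iPSC replicate 2. The difference of 1.12 ± 0.50 between iPSCs and MEFs was not called (limma adjusted p = 0.14) except without MEF replicate 1 (limma adjusted p = 0.034). The summed fibroblast markers were 8.4% of the MEF mean or less in all pre-iPSC and iPSC libraries, although single markers kept more. The part of fibroblasts in the levels of Klf2, Klf5 and Tbx3 was not tested.

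Tcfcp2l1, a grainyhead-like factor downstream of LIF and Stat3, had an intermediate level in pre-iPSCs (chr1:120524522-120581745, plus strand). It was at 0.0206 and 0.0239 FPKM in MEFs, 1.35 and 0.939 FPKM in pre-iPSCs, and 3.86 and 5.53 FPKM in iPSCs, with no overlap between the cell types. The change from pre-iPSCs to iPSCs was 1.40 ± 0.34 (limma adjusted p = 0.0465). Leaving out either iPSC library or either pre-iPSC library gave limma adjusted p-values of 0.123, 0.224, 0.0789 and 0.371. The change from MEFs to pre-iPSCs was 1.06 ± 0.34 (limma adjusted p = 0.0744). With a pseudocount of 0.1 this change was 3.33 and called (limma adjusted p = 0.00988).

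By level per transcript length, Klf2 stood first in iPSCs at 115 ± 6.77 FPKM (SD, n = 2), followed by Sall4 at 78.2 ± 22.7, Zfp42 at 59.9 ± 5.61, Esrrb at 52.5 ± 0.0247, Klf5 at 51.6 ± 12.1, Nr0b1 at 14.4 ± 3.76, Tbx3 at 12.7 ± 6.8, Tcfcp2l1 at 4.69 ± 1.18, Prdm14 at 3.64 ± 0.368 and Nr5a2 at 3.52 ± 2.15 FPKM. Of the neighbours in this order, Sall4 and Zfp42, Esrrb and Klf5, Nr0b1 and Tbx3, Tcfcp2l1 and Prdm14, and Prdm14 and Nr5a2 had overlapping replicates. In pre-iPSCs the leading members were Klf5 at 15.6 ± 8.29, Klf2 at 14.8 ± 2.79 and Nr0b1 at 13.0 ± 4.11 FPKM, which overlapped. In MEFs, Klf2 at 32.6 ± 22.4, Klf5 at 13.4 ± 4.50 and Tbx3 at 5.05 ± 1.99 FPKM were above 0.5 FPKM, and these have the most CpGs among the 9 promoters described.

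H3K4me3 reads within 1000 bp of the TSS were compared with the quasi-likelihood test of edgeR over 17644 genes, called at an adjusted p below 0.05. In iPSCs against MEFs 5 of the 10 members rose (Esrrb, Prdm14, Sall4, Zfp42 and Tcfcp2l1), where 9.92% of all genes rose. In pre-iPSCs against MEFs Sall4 alone rose, where 3.16% of all rose, and in iPSCs against pre-iPSCs none was called, where 0.0283% of all were called in either direction. In that last comparison 2 members, Zfp42 and Prdm14, had an unadjusted p under 0.05, where 1580 of all genes did, and DESeq2 called none. The members' median log2 change was 0.59, 0.37 and 0.98 in the 3 comparisons (pre-iPSCs against MEFs, iPSCs against pre-iPSCs, iPSCs against MEFs), and the median over all genes was -0.01, -0.01 and -0.03.

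Sall4 had 21 and 12 H3K4me3 reads in its window in MEFs, then 44 and 44 in pre-iPSCs, then 43 and 34 in iPSCs. Pre-iPSCs were already at the iPSC level, although the transcript was not. The rise was 1.74 ± 0.30 in pre-iPSCs (edgeR adjusted p = 0.000273) and 1.52 ± 0.31 in iPSCs (edgeR adjusted p = 0.000851) on the log2 scale. Within 500 bp of the TSS neither was called (edgeR adjusted p = 0.0669 and 0.0565). Prdm14 had 14 and 18 reads in MEFs, then 25 and 16 in pre-iPSCs, then 42 and 33 in iPSCs, and it was 1.52 ± 0.33 higher in iPSCs than in MEFs (edgeR adjusted p = 0.00169). Here the pre-iPSC range overlapped with MEFs and iPSCs stood above both. Without MEF replicate 1 the edgeR adjusted p of Prdm14 was 0.0623.

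Zfp42 had 14 and 7 reads in MEFs, then 12 and 13 in pre-iPSCs, then 35 and 20 in iPSCs, a log2 difference of 1.68 ± 0.40 between iPSCs and MEFs (edgeR adjusted p = 0.00385, or 0.117 without iPSC replicate 1 and 0.136 within 500 bp). Esrrb had 12 and 9, then 16 and 15, then 19 and 28 reads, a difference of 1.47 ± 0.41 (edgeR adjusted p = 0.0123, or 0.0659 without MEF replicate 1 and 0.216 without iPSC replicate 2). Even in iPSCs, Esrrb stayed above only 40.7% of all genes by reads in this window. Its next annotated start, 60.5 kb downstream, had 46 and 25, 39 and 35, and 59 and 32 H3K4me3 reads and was not called (edgeR adjusted p = 0.454, 0.828 and 0.0869 in the 3 comparisons). Tcfcp2l1 had 27 and 35 reads in MEFs, 35 and 43 reads in pre-iPSCs, and 57 and 39 reads in iPSCs, 0.93 ± 0.27 higher than in MEFs (edgeR adjusted p = 0.0164, or 0.259 without MEF replicate 1 and 0.184 without iPSC replicate 1). It stood above 95.2% of all genes in iPSCs, the highest rank of the members.

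The other members were not called. Klf5, expressed in MEFs, had its most reads there, with 71 and 52 against 24 and 36 for pre-iPSCs and 41 and 30 for iPSCs, and its log2 change to pre-iPSCs was -0.70 ± 0.26 (edgeR adjusted p = 0.116). With library sizes in place of TMM factors Klf5 was called lower in both cell types (-1.08 and -0.83, edgeR adjusted p = 0.0267 and 0.0487). Nr0b1, whose transcript was high in pre-iPSCs and iPSCs, had 12 and 12, then 12 and 17, then 21 and 19 reads, and Nr5a2 had 15 and 7, then 10 and 16, then 4 and 16. At these RefSeq starts both were under the median of all genes in every library, which was 25 to 36 reads. The downstream start of Nr5a2 had 31 and 25 H3K4me3 reads in MEFs, 40 and 37 reads in pre-iPSCs and 35 and 34 reads in iPSCs, above that median in the pre-iPSC and iPSC libraries, and was not called (edgeR adjusted p = 0.0896, 0.902 and 0.135 in the 3 comparisons). Klf2 had 49 and 28, 25 and 26, and 48 and 25 reads, and Tbx3 had 51 and 33, 36 and 23, and 43 and 31 reads, where the ranges of Tbx3 overlapped between all cell types and those of Klf2 did so except between MEFs and pre-iPSCs. DESeq2 called none of the 5 members in iPSCs against MEFs (adjusted p = 0.0647 to 0.282) and 118 genes in all, against 2450 genes with edgeR.

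**Figure D2:**
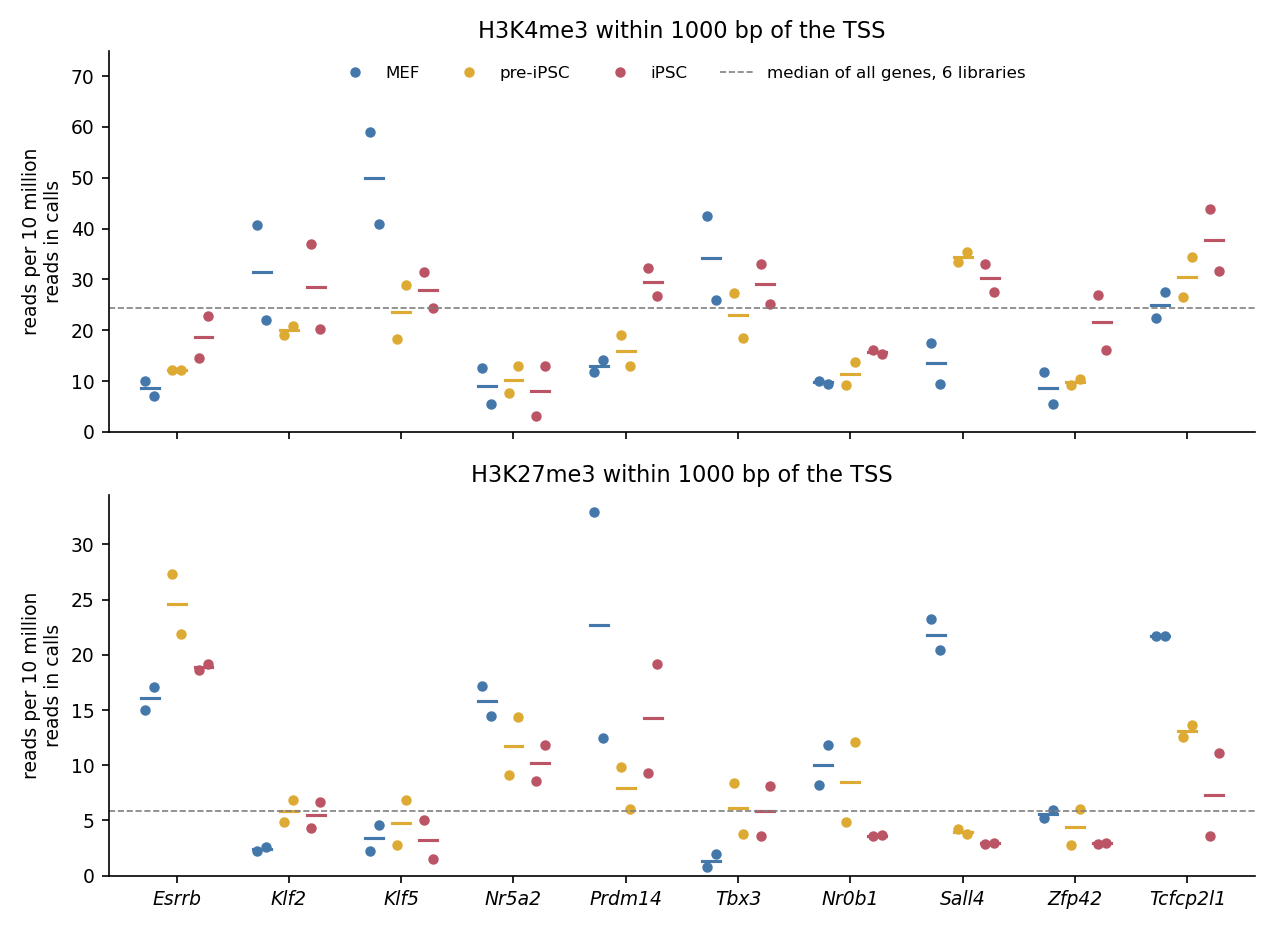
Reads of H3K4me3 (top) and H3K27me3 (bottom) within 1000 bp of the TSS of each factor, per 10000000 reads in calls on the vertical axes, with 1 point per library, a bar at the mean of each cell type and a dashed line at the median of all genes over the 6 libraries. Sall4 moves from high H3K27me3 and low H3K4me3 in MEFs to the opposite in pre-iPSCs and iPSCs.

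Over the whole transcript, a region added after the data were seen because the reads of Zfp42 extend past the TSS window, H3K4me3 over Zfp42 was 45 and 46 reads in MEFs, then 40 and 40 in pre-iPSCs, then 164 and 115 in iPSCs. The iPSC libraries did not overlap with the others. The log2 rise from pre-iPSCs to iPSCs was 1.77 ± 0.22 (edgeR adjusted p = 0.00423), and 0.00557% of the 17954 genes rose in this comparison. Since the region was chosen for the reads of Zfp42, its values are a description and nothing is read from that share. Its edgeR adjusted p was 0.132 and 0.183 without pre-iPSC replicate 1 or 2, and DESeq2 gave no adjusted p for it and called 5 other genes. Klf2 changed by 0.66 ± 0.29 over its transcript in this comparison and was not called (edgeR adjusted p = 0.337). Its log2 change was 1.0 without iPSC replicate 2.

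In pre-iPSCs against MEFs, H3K4me3 over transcripts rose at 3 members, where 8.41% of all genes rose, and fell at Tbx3, where 7.65% of all fell. Sall4 went from 127 and 102 reads to 368 and 259 (log2 change of 1.40 ± 0.17, edgeR adjusted p = 0.000315), Esrrb changed by 0.42 ± 0.12 (edgeR adjusted p = 0.0275) and Tcfcp2l1 by 0.49 ± 0.15 (edgeR adjusted p = 0.0311). Tbx3 went from 312 and 235 reads to 174 and 150 (log2 change of -0.81 ± 0.16, edgeR adjusted p = 0.0041). The calls of Esrrb and Tcfcp2l1 were lost without MEF replicate 1 or without pre-iPSC replicate 1, and that of Tbx3 in the former fit. Far fewer genes were called in all in both fits. The log2 change of Tcfcp2l1 was 0.31 in the former and that of Esrrb 0.27 in the latter. Esrrb was also not called without MEF replicate 2 (edgeR adjusted p = 0.0648), nor Tcfcp2l1 without pre-iPSC replicate 2 (edgeR adjusted p = 0.157). Klf2, at 107 and 60 reads in MEFs and 55 and 46 in pre-iPSCs, changed by -0.78 ± 0.29 and was not called (edgeR adjusted p = 0.0739). Its change was -1.14 without MEF replicate 2. With the replicate number as a block it was -0.75 and called (edgeR adjusted p = 0.0407).

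In iPSCs against MEFs, the same region rose at Esrrb, Prdm14, Sall4 and Tcfcp2l1, where 16.2% of all rose, and was lower at Tbx3, where 14.8% of all were lower. Zfp42 was higher by 1.53 ± 0.22, which is a description, since the region was chosen for its reads. Of the others that rose, Sall4 had the largest difference (1.21 ± 0.18, edgeR adjusted p = 0.000322). That of Tbx3 was -0.43 ± 0.16 (edgeR adjusted p = 0.048) and was lost on leaving out any library but MEF replicate 2, with edgeR adjusted p-values of 0.422, 0.0582, 0.0579, 0.165 and 0.0945 without MEF replicate 1, pre-iPSC replicates 1 and 2 and iPSC replicates 1 and 2. The difference of Tbx3 without MEF replicate 1 was -0.21. With DESeq2, library sizes, no filter on low counts or a replicate block, 5 members were called in this comparison, against 6 with Zfp42 counted. These fits called 3212, 5248, 5226 and 5258 genes in all. Tcfcp2l1 was not called without MEF replicate 1 (edgeR adjusted p = 0.104).

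H3K27me3 within 1000 bp of the TSS was high in MEFs at several of the members silent there. In MEFs Prdm14 stood above 97.0% of all genes, Sall4 above 96.3%, Tcfcp2l1 above 96.2%, Esrrb above 87.6% and Nr5a2 above 87.2%, whereas Nr0b1 and Zfp42, both listed at 0 FPKM in MEFs, were at 72.6% and 54.4% and Tbx3, which was expressed, at 8.61%. Of the 7 members with enough reads to test (Klf2, Klf5 and Zfp42 were under the filter), Prdm14 and Sall4 fell from MEFs to pre-iPSCs, where 3.26% of 10185 genes fell. The filter ran over all 6 libraries, and Sall4 and Nr0b1 passed it through the MEFs, the cells in which they were high. Nr0b1, Sall4 and Tcfcp2l1 were lower in iPSCs than in MEFs, where 4.14% were lower. None was called between pre-iPSCs and iPSCs, where 0.805% were called in either direction. In that comparison Nr0b1 and Tcfcp2l1 had an unadjusted p under 0.05 by edgeR, where 1178 of all genes did, and DESeq2 called no member. The members' median log2 change was -0.46, -0.44 and -0.72 in the 3 comparisons (pre-iPSCs against MEFs, iPSCs against pre-iPSCs, iPSCs against MEFs), and that of all genes was -0.02, -0.01 and -0.02. H3 in this window was called at no member. From MEFs to pre-iPSCs H3 changed by -1.26 ± 0.34 at Sall4 and 0.85 ± 0.37 at Prdm14. Between iPSCs and MEFs H3 differed by -1.28 ± 0.37 at Nr0b1, -1.14 ± 0.34 at Sall4 and -0.22 ± 0.43 at Tcfcp2l1. In MEFs H3 stood above 98.7% of all genes at Esrrb, 87.9% at Sall4, 84.2% at Nr5a2, 79.8% at Tcfcp2l1, 72.8% at Prdm14 and 21.1% at Tbx3. The part of H3 in the H3K27me3 levels was not tested.

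Sall4 had 31 and 31 H3K27me3 reads in MEFs, then 6 and 5 in pre-iPSCs, then 4 and 4 in iPSCs. The log2 change from MEFs was -2.44 ± 0.42 for pre-iPSCs and -2.94 ± 0.44 for iPSCs (edgeR adjusted p = 3.46e-05 and 6.29e-06), and both calls held in every alternative run, DESeq2 included. Tcfcp2l1 was intermediate in pre-iPSCs, with 29 and 33 reads in MEFs, then 18 and 18 in pre-iPSCs, then 5 and 15 in iPSCs, and the difference between iPSCs and MEFs was -1.64 ± 0.38 (edgeR adjusted p = 0.00197, or 0.166 without iPSC replicate 1). It was -1.05 without iPSC replicate 1 and -2.71 without iPSC replicate 2. Prdm14 had 44 and 19 reads in MEFs, then 14 and 8 in pre-iPSCs, then 13 and 26 in iPSCs. The first change was -1.49 ± 0.40 (edgeR adjusted p = 0.0102) and rested on MEF replicate 1 and pre-iPSC replicate 2, since it was -0.63 and -1.22 without them (edgeR adjusted p = 0.566 and 0.112). In iPSCs against MEFs Prdm14 was called only without MEF replicate 2 or iPSC replicate 2 (edgeR adjusted p = 0.00636 and 0.0387, against 0.183 with all libraries). Nr0b1 had 11 and 18, 7 and 16, and 5 and 5 reads, with a log2 difference of -1.53 ± 0.51 between iPSCs and MEFs (edgeR adjusted p = 0.0387), and the edgeR adjusted p was 0.222, 0.166 and 0.108 without MEF replicate 2, iPSC replicate 1 or iPSC replicate 2.

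Esrrb was different from these at its start. It had 20 and 26 H3K27me3 reads in MEFs, then 39 and 29 in pre-iPSCs, then 26 and 26 in iPSCs, and stayed above 95.1% of all genes in iPSCs, where its transcript was at 52.5 FPKM. No comparison of this window was called (log2 changes of 0.60, -0.44 and 0.16, edgeR adjusted p = 0.244, 0.632 and 0.801). Around the downstream start of Esrrb H3K27me3 reads were 37 and 37, 31 and 31, and 27 and 23, with no call either. At the downstream start of Nr5a2, whose sequence is given with the promoters, H3K27me3 was 32 and 35 reads in MEFs, then 7 and 12 in pre-iPSCs, then 7 and 9 in iPSCs. That is a log2 change of -1.77 ± 0.37 to pre-iPSCs and -2.07 ± 0.38 to iPSCs (edgeR adjusted p = 0.000859 and 0.000132), while the RefSeq start had 23 and 22, 13 and 19, and 12 and 16 reads and was not called (edgeR adjusted p = 0.495 and 0.22). These starts were added after the data were seen, and that of Nr5a2 passed the filter on low counts through its MEF reads. Tbx3 had 1 and 3, 12 and 5, and 5 and 11 reads, and was not called (edgeR adjusted p = 0.0905 in pre-iPSCs against MEFs).

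With DESeq2, and likewise with windows of 500 bp, Sall4 was the 1 member called for H3K27me3 in each comparison with MEFs. DESeq2 called 54 and 32 genes in all, against 842 and 1163 with edgeR. In iPSCs against MEFs, 2 members were called with library sizes in place of TMM factors and 2 with calls of at least 2 reads, against 3. These fits called 1144 and 668 genes in all.

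H3K27me3 was also compared over whole transcripts, where more members and more genes in general were called. In pre-iPSCs against MEFs, 5 members fell (Nr5a2, Prdm14, Nr0b1, Sall4 and Tcfcp2l1), where 12.6% of 17622 genes fell, and Tbx3 rose, where 10.5% rose. In iPSCs against MEFs 6 were lower, the same 5 and Esrrb, where 14.4% of all were lower. From pre-iPSCs to iPSCs Esrrb alone fell, where 0.306% of all fell. The median log2 change of the members was -0.47, -0.34 and -0.99 in the 3 comparisons (pre-iPSCs against MEFs, iPSCs against pre-iPSCs, iPSCs against MEFs), against 0.05, 0.00 and 0.04 over all genes.

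Nr0b1 had 25 and 42 reads in MEFs, then 12 and 9 in pre-iPSCs, then 6 and 6 in iPSCs, with log2 changes of -1.86 ± 0.40 to pre-iPSCs and -2.67 ± 0.44 to iPSCs (edgeR adjusted p = 0.00079 and 2.2e-05). Sall4 had 178 and 234, then 87 and 60, then 84 and 37 reads (-1.70 ± 0.24 and -2.01 ± 0.25, edgeR adjusted p = 3.16e-06 and 2.02e-07). Nr5a2 had 1218 and 1269, then 705 and 745, then 614 and 618 reads (-1.0 ± 0.17 and -1.26 ± 0.17, edgeR adjusted p = 5.22e-05 and 1.39e-06). In these 3 genes MEFs stood above all other libraries, and the calls held in every alternative. Nr0b1 passed the filter on low counts through its MEF reads. Prdm14 had 172 and 172, 95 and 112, and 73 and 97 reads (-0.95 ± 0.23 and -1.25 ± 0.24, edgeR adjusted p = 0.0034 and 0.000159), and the first of its calls was lost without MEF replicate 1 or pre-iPSC replicate 1 (edgeR adjusted p = 0.11 and 0.128).

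Tcfcp2l1 had 557 and 715 reads in MEFs, then 466 and 422 in pre-iPSCs, then 326 and 268 in iPSCs (-0.73 ± 0.16 and -1.33 ± 0.17 against MEFs, edgeR adjusted p = 0.00135 and 2.36e-07), and the first was not called without pre-iPSC replicate 1 (edgeR adjusted p = 0.0569). Tbx3, whose transcript was lowest in pre-iPSCs, had 56 and 62 reads in MEFs, then 121 and 138 in pre-iPSCs, then 84 and 124 in iPSCs. It was the member called higher in pre-iPSCs (0.93 ± 0.26, edgeR adjusted p = 0.00981), and that call was lost without MEF replicate 1, MEF replicate 2 or pre-iPSC replicate 2 (edgeR adjusted p = 0.0661, 0.0957 and 0.116). Tbx3 was not called in iPSCs against MEFs (edgeR adjusted p = 0.0861), except without iPSC replicate 1 (edgeR adjusted p = 0.0136) or with library sizes in place of TMM factors (edgeR adjusted p = 0.0442).

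Esrrb had 1741 and 1854 H3K27me3 reads over its transcript in MEFs, then 2178 and 1877 in pre-iPSCs, then 1159 and 1409 in iPSCs. MEFs and pre-iPSCs did not differ beyond the spread (-0.06 ± 0.18), and the fall came between pre-iPSCs and iPSCs (-0.66 ± 0.18, edgeR adjusted p = 0.0468), as did the rise of the transcript. The call was lost without iPSC replicate 1 (edgeR adjusted p = 0.556), pre-iPSC replicate 1 (0.217) or pre-iPSC replicate 2 (0.463), as well as with the replicate number as a block (0.123). In iPSCs against MEFs it was -0.72 ± 0.18 (edgeR adjusted p = 0.00291, or 0.0628 without MEF replicate 1 and 0.13 without iPSC replicate 1). Klf5 and Zfp42 were not called. Nor was Klf2, with 7 and 8 reads in MEFs, 19 and 19 reads in pre-iPSCs and 22 and 15 reads in iPSCs (log2 changes of 1.12 and 1.05 from MEFs, edgeR adjusted p = 0.0754 and 0.0855). With library sizes in place of TMM factors Klf2 was called higher in both (edgeR adjusted p = 0.0475 and 0.0462), as it was with calls of at least 2 reads (0.0284 and 0.0288).

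**Figure D3:**
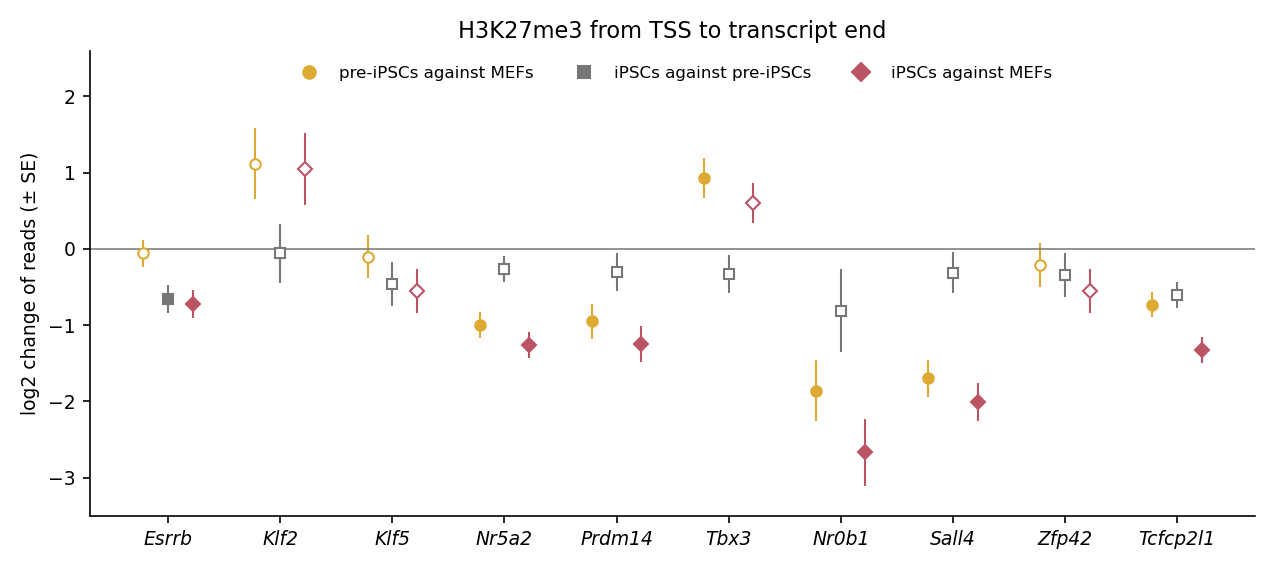
Log2 change of H3K27me3 reads from TSS to transcript end for each factor in the 3 comparisons, with standard errors as bars and filled symbols where edgeR called the change. The filled symbols against MEFs lie between -0.72 and -2.67 for the factors that lost the mark, and Tbx3 in pre-iPSCs is the filled symbol above 0.

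The profiles of reads in 500-bp bins place these changes. Over the 5000 bp either side of the Sall4 start, H3K27me3 summed to 157 and 152 reads in MEFs, then 60 and 43 in pre-iPSCs, then 42 and 34 in iPSCs, and H3K4me3 to 86 and 74, 173 and 175, and 184 and 162 reads. At Tcfcp2l1 the bin of 500 bp after the start held the most H3K4me3 reads in every library but MEF replicate 1, with 6 and 16 reads in MEFs, 22 and 21 reads in pre-iPSCs and 38 and 14 reads in iPSCs, while H3K27me3 over the whole span summed to 121 and 159, 84 and 105, and 53 and 74 reads. At Zfp42 H3K4me3 summed to 38 and 32 reads in MEFs, then 52 and 46 in pre-iPSCs, then 127 and 89 in iPSCs, and the iPSC reads lay mostly past the start, with 14 and 14 reads in the bin 1000 to 1500 bp downstream against 2 and 2 in MEFs and 5 and 3 in pre-iPSCs. H3K27me3 was low there in every cell type, at 43 and 58, 46 and 44, and 39 and 30 reads.

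**Figure D4:**
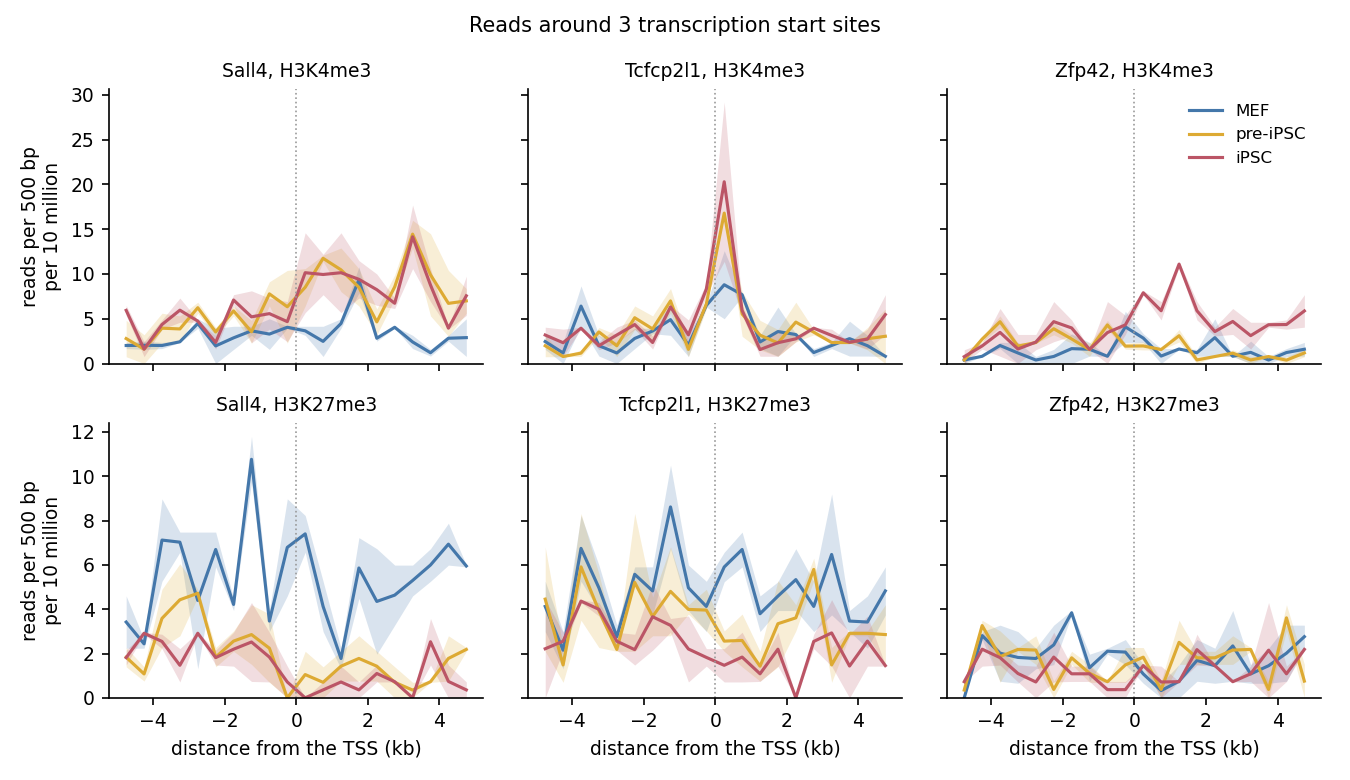
Reads of H3K4me3 (top) and H3K27me3 (bottom) per 500-bp bin and 10000000 reads in calls, against distance from the TSS in kb with the direction of transcription to the right, for Sall4, Tcfcp2l1 and Zfp42. Lines are means of the 2 libraries of a cell type and bands their range, and at Zfp42 the iPSC line rises past the start, where the MEF and pre-iPSC lines stay low.

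By the state rule of an RPKM (reads per kilobase, scaled to library size) above 1 in the 1000 bp centred on the TSS, no member held both marks in any library. Esrrb, Nr5a2 and Nr0b1 had neither mark in all 6 pairs of libraries. H3K4me3 alone was found for Prdm14 in both iPSC libraries and nowhere else, for Klf5 in both MEF libraries and nowhere else, and for Tcfcp2l1 in 5 of 6 libraries. Some of these values lay just under the threshold. By H3K4me3, Klf5 was at 0.981 and 0.909 RPKM in pre-iPSCs and 0.992 and 0.921 RPKM in iPSCs, and Prdm14 at 0.919 and 0.844 RPKM in pre-iPSCs. By H3K27me3, Tcfcp2l1 was at 0.953 RPKM in MEF replicate 2, where its H3K4me3 was at 1.53 RPKM. Esrrb was at 0.956 RPKM of H3K27me3 in pre-iPSC replicate 1 and Nr5a2 at 0.908 RPKM in MEF replicate 1. Sall4 had H3K27me3 alone in MEF replicate 1 and H3K4me3 alone in both pre-iPSC libraries and iPSC replicate 1. Over all genes, both marks were present in 0.437% to 0.903% of promoters, H3K27me3 alone in 0.908% to 2.56%, H3K4me3 alone in 30.4% to 55.8% and neither mark in 42.1% to 67.7%. When RPKM was scaled to reads in calls, 1 member held both marks in MEF replicate 2 and 1 in iPSC replicate 2, where 2.13% and 2.14% of all genes did.

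For H3K9me3 there was 1 library per cell type, so no difference was tested, and the 95% exact Poisson intervals cover counting error only. Sall4 had the most of this mark over its transcript in pre-iPSCs, with 131 reads in MEFs, 229 reads in pre-iPSCs and 90 reads in iPSCs, or 0.456 (0.381 to 0.541), 0.757 (0.662 to 0.862) and 0.316 (0.254 to 0.388) RPKM. The pre-iPSC value was above 99.4% of all genes, although its start had 1 read in this library and 11 and 4 in MEFs and iPSCs. H3 over the same transcript was 2672 reads in replicate 1 of the pre-iPSCs and 462 to 1212 in the others, and its part in the H3K9me3 level was not tested. Tbx3 was likewise highest in pre-iPSCs, with 54, 112 and 61 reads over the transcript (0.254, 0.502 and 0.29 RPKM), and its pre-iPSC interval of 0.413 to 0.604 RPKM lay above those of MEFs (0.191 to 0.332) and iPSCs (0.222 to 0.372). H3 over Tbx3 was 1561 reads in replicate 1 of the pre-iPSCs and 317 to 660 reads in the others, and its part was not tested here either.

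At the start, Prdm14 carried the most H3K9me3 of the members, with 22, 20 and 14 reads in MEFs, pre-iPSCs and iPSCs, above 97.9%, 96.9% and 82.9% of all genes. Nr0b1 had 17, 4 and 7 reads there, with intervals of 0.325 to 0.893 RPKM in MEFs and 0.034 to 0.319 RPKM in pre-iPSCs that do not meet. At the downstream start of Nr5a2 the counts were 23, 5 and 1 reads. The median of the members at the start was 0.295, 0.203 and 0.232 RPKM and that of all genes 0.197, 0.218 and 0.265 RPKM.

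H3 itself, within 1000 bp of the TSS, was called at no member and at no gene in any of the 3 comparisons (0.0%, 0.0% and 0.0% of 19576 genes by edgeR, and none by DESeq2). The H3 replicates of pre-iPSCs and of iPSCs lay far apart, so the absence of calls does not show that H3 was unchanged. At an unadjusted p under 0.05, 2 members differed between pre-iPSCs and MEFs, none between iPSCs and pre-iPSCs and 2 between iPSCs and MEFs, where 377, 105 and 298 of all genes did. The 2 were Nr0b1 and Sall4, both lower than in MEFs. Sall4 had 63 and 87 reads in MEFs, then 114 and 25 in pre-iPSCs, then 81 and 32 in iPSCs, where the median over all genes was 39 and 46, 143 and 37, and 102 and 44. Esrrb was above 97.9% to 98.7% of all genes in H3 in every cell type, with 93 and 95, 493 and 65, and 228 and 100 reads. Without pre-iPSC replicate 2, which leaves the one farthest from the rest as the lone pre-iPSC library, Nr5a2 and Prdm14 were called in pre-iPSCs against MEFs (-2.01 and 1.25, edgeR adjusted p = 0.00937 and 0.0136) and against iPSCs (edgeR adjusted p = 0.0291 and 0.0182), in fits that called 4946 and 2087 of 19628 genes. Without pre-iPSC replicate 1 none was called.

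The members can be set beside other genes of the network. Of 19 further pluripotency genes tested, 13 rose from MEFs to pre-iPSCs and none fell, 7 rose and 1 fell from pre-iPSCs to iPSCs, and 17 were higher in iPSCs than in MEFs (median log2 changes of 2.72, 0.98 and 5.82). Among those called from pre-iPSCs to iPSCs, Dppa5a (a small KH domain protein of stem cells) changed by 7.60 ± 0.38, Dppa4 (a chromatin factor of early embryos) by 6.00 ± 0.36, Nanog (a homeobox factor of the core network) by 5.64 ± 0.41, Utf1 (a chromatin factor of stem cells) by 5.43 ± 0.68 and Lin28a (an inhibitor of let-7 maturation) by 5.27 ± 0.41 on the log2 scale (limma adjusted p = 0.000484 to 0.00458). Nanog was at 0.519 and 0 FPKM in pre-iPSCs and 49.5 and 73.6 FPKM in iPSCs, a pattern like those of Esrrb and Zfp42. The gene that fell was Klf4, delivered by the retroviruses as were Oct4 (Pou5f1) and Sox2, by 2.82 on the log2 scale (limma adjusted p = 0.00625), and FPKM does not separate the gene from the transgene.

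Of 9 tested genes of the primed epiblast, the state after implantation, 3 rose and 1 fell from MEFs to pre-iPSCs, 4 rose and none fell from pre-iPSCs to iPSCs (Lef1, Dnmt3b, Sox3 and Dnmt3a, with log2 changes of 3.0, 2.74, 2.45 and 1.88), and 7 were higher and 2 lower in iPSCs than in MEFs (medians of 0.55, 1.34 and 2.93). Lef1 and Sox3 are transcription factors, and Dnmt3b and Dnmt3a are the de novo DNA methyltransferases. Fgf5 and T, the classical primed markers, were under the filter, at 0.0314 and 0.534 FPKM and at 0.234 and 0.576 FPKM in iPSCs. Of 15 tested relatives of the members by gene family, 5 rose and 1 fell from MEFs to pre-iPSCs, none rose and 2 fell from pre-iPSCs to iPSCs (Klf4 and Tbx4), and 2 were higher and 2 lower in iPSCs than in MEFs (medians of 0.26, -0.23 and 0.17). Yy1, the relative of Zfp42, was at 34.6 and 32.2, 31.9 and 34.6, and 23.8 and 33.1 FPKM.

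Several of the factors are also used in other early lineages. Of 5 tested trophoblast markers, 2 rose and 1 fell from MEFs to pre-iPSCs, none rose and 1 fell from pre-iPSCs to iPSCs, and 2 were higher and 2 lower in iPSCs than in MEFs. The list summed to 4.37 and 11.4 FPKM in MEFs, then 18.8 and 13.6 in pre-iPSCs, then 17.0 and 32.8 in iPSCs, with Cdx2 listed at 0 in 5 of 6 libraries. Most of the iPSC sum was Tcfap2c (13.1 and 28.4 FPKM), which was at 11.3 and 5.02 FPKM in pre-iPSCs. Of 5 tested primitive endoderm markers none rose and 3 fell, none rose or fell, and 1 (Gata4) was higher and 2 lower in the same comparisons. The full list of 8 summed to 284 and 141, 49.0 and 38.2, and 22.7 and 39.2 FPKM, with Sox17 listed at 0 in MEFs and pre-iPSCs. Most of the MEF sum was Col4a1 (249 and 111 FPKM) and Dab2 (31.3 and 27.4 FPKM). The part of either lineage in the levels of the members was not tested.

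As a description over the 6 libraries, the genes whose log2(FPKM + 1) went most like the mean of the centred and scaled members were Rgl2, Amt, Prph, Clstn3 and Arhgef16, with Pearson correlations of 0.9998, 0.9974, 0.9973, 0.9966 and 0.9961. That mean was -0.72 and -0.73 in MEFs, then -0.23 and -0.45 in pre-iPSCs, then 0.98 and 1.14 in iPSCs. Rgl2 had the same order over a narrow range, from 9.09 FPKM in MEFs to 13.9 FPKM in iPSCs, whereas Amt was at 0.496 and 0.127 FPKM in MEFs, 2.34 and 1.01 FPKM in pre-iPSCs and 24.4 and 28.0 FPKM in iPSCs.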

How the data were processed

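The members and the gene lists were chosen with earlier results of these data known. Per the labels and the study's methods, the authors mapped MNase ChIP-seq reads to mm9 with Bowtie 1.0.1, kept unique reads, called nucleosomes in each library and deposited the read count of every call. The authors deposited RNA-seq values as FPKM from TopHat 2.0.4 and Cufflinks 2.0.2, in 2 tables that each hold 1 library of every cell type, and whether these were normalized together is not given in the sources used here. Columns of the authors' own comparisons were not used.

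Here, calls were assigned by dyad to windows around RefSeq TSSs and to transcripts, and their counts were tested with edgeR 4.0.16 (TMM, low counts filtered, all 6 libraries of a mark in one fit). Expression was tested with limma 3.58.1 (R 4.3.3) on log2(FPKM + 1) over all 6 libraries with the table as a term. RPKM of H3K9me3 and of the promoter states was scaled to the unique reads of the study. DESeq2 1.42.0, other filters, pseudocounts, scalings and windows, and fits without each library were the alternatives. The tests were also run on data simulated from the means and spread of these data, with a larger planted change for H3 than for the other marks. Besides the 10 members, up to 5 genes per list were named, by the size of a called change between pre-iPSCs and iPSCs. Yy1, Fgf5, T, Cdx2, Tcfap2c, Sox17, Gata4, Col4a1, Dab2, Dppa3, Tdgf1, Oct4, Sox2, Fn1 and Pdgfra were named after their values were seen. Promoter sequences were read from the mm9 genome, and further starts came from GENCODE M1. The promoter sequence of 1 member is not reported here.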

Additional observations from a re-analysis of the deposited data

How the results depend on the processing

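Of the 52 member changes called, 480 of 573 values under an alternative kept the direction and the call, 93 kept the direction without the call and 0 were reversed. These alternatives refit the same libraries for changes already called, so the kept direction is no independent support. Fits in which a member was filtered out or DESeq2 gave no adjusted p were not counted. Counts of members called are given here for pre-iPSCs against MEFs, iPSCs against pre-iPSCs and iPSCs against MEFs in turn, and the cause of a difference was not tested unless named. For expression the counts of 2, 7 and 8 became 0, 3 and 4 with no filter on low values (0, 170 and 549 genes in all). With a pseudocount of 0.1 they became 5, 6 and 9 (2179, 1095 and 3436 genes in all). Added in the first were rises of Nr5a2 and Tcfcp2l1 (5.15 and 3.33) and a fall of Tbx3 (-2.39). A rise of Nr5a2 (5.04) was added in the last. Leaving out 1 library moved all 3 counts and also the calls over all genes. For H3K4me3 at the TSS the counts were 1, 0 and 5, with 691, 5 and 2450 of 17644 genes in all. Within 500 bp they became 0, 0 and 2 (294, 0 and 912 of 14451 genes). DESeq2 gave 1, 0 and 0 (31, 0 and 118 genes), and library sizes in place of TMM gave 2 in the first (1355 genes). The last fell without MEF replicate 1 or either iPSC library, as did the calls over all genes. For H3K27me3 at the TSS the counts were 2, 0 and 3, with 842, 82 and 1163 of 10185 genes in all. They became 1, 0 and 1 within 500 bp (93, 2 and 145 of 4285 genes) and with DESeq2 (54, 0 and 32 genes). The first and the last also fell on leaving out some libraries, where fewer genes were called in all. Over transcripts the count of 1 for H3K27me3 in iPSCs against pre-iPSCs (241 genes in all) became 0 in several fits. These were calls of at least 2 reads or library sizes, where no gene was called, and a replicate block, where 141 genes were. The call was also lost without iPSC replicate 1 or either pre-iPSC library, where fewer genes were called in all. Over transcripts the H3K4me3 counts of 4 and 1 in the first 2 comparisons moved on leaving out a library, as did the calls over all genes. DESeq2 gave 0 in the second, where it called 5 genes. For H3 the counts of 0 were 0 to 2 in the first 2 comparisons, with the 2 appearing without pre-iPSC replicate 2, where 4946 and 2087 of 19628 genes were called.

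Expression was fitted with the table, and so the library number, as a term. The marks were fitted without it, since the labels do not tie libraries of the same number to a shared clone. Same-numbered pre-iPSC and iPSC libraries did move together for H3 and, less far, for the marks over transcripts. Deviations of same-numbered expression libraries correlated at 0.346 (MEFs and pre-iPSCs), -0.205 (MEFs and iPSCs) and 0.112 (pre-iPSCs and iPSCs). For pre-iPSCs and iPSCs they correlated at 0.794 for H3, 0.116 for H3K4me3 and 0.0317 for H3K27me3 at the TSS, and at 0.285 and 0.429 for H3K4me3 and H3K27me3 over transcripts, while every pair with MEFs was at 0.00838 or below for the same measures. Without the table as a block, expression gave 3, 7 and 8 members, Tbx3 being the one added (limma adjusted p = 0.0462). With the library number as a replicate block, H3K4me3 at the TSS gave 1, 0 and 5 members, H3K27me3 at the TSS 2, 0 and 3, H3K27me3 over transcripts 6, 0 and 6, H3K4me3 over transcripts 5, 1 and 5, and H3 0, 0 and 0. In H3K27me3, the TSS windows of Klf2, Klf5 and Zfp42 held 2 to 9 reads per library and were not tested.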
